A study of Mus musculus with 20 samples.

Results

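The transcripts described here come from 8 mouse genes of monocytes and of the MS4A family: Ccr2, Ly6c2, Plac8, Ms4a4c, Ms4a6b, Ms4a6c, Ms4a6d and Ms4a7. They were chosen by name from the 34234 genes of the deposited table, and all 8 were in it. All 8 also reached at least 1 TPM (the share of a gene among all transcripts, corrected for its length and scaled to 1 total in every library) in at least 5 libraries, as did 15422 genes in all, which were tested. Bulk RNA was sequenced from 20 kidney tumours that MSRT1 cells, labelled as renal medullary carcinoma, formed in mice. The 4 groups had 5 tumours each: GYY_PD1 received GYY4137, a slow-release donor of hydrogen sulfide, with an antibody against the checkpoint receptor PD1; GYY_IgG received GYY4137 with control IgG; Veh_PD1 received vehicle with the PD1 antibody; Veh_IgG received vehicle with IgG. The labels give no age, dose or time, and every tumour came from the same cell line.

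Classical monocytes leave the bone marrow through CCR2, the receptor for CCL2 and related chemokines, carry Ly6C on their surface, and can mature into macrophages after they enter a tumour. MS4A proteins cross the membrane several times. In the mouse their genes lie in a cluster, and Ms4a4c, Ms4a6b, Ms4a6c, Ms4a6d and Ms4a7 are known as transcripts of myeloid cells, with Ms4a7 a common macrophage marker. PLAC8 is a small cysteine-rich protein that is abundant in monocytes and other leukocytes.

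On mm10 the 5 MS4A genes lie on chromosome 19, with Ms4a7 at 11321039 to 11336146, Ms4a4c at 11404770 to 11427246, Ms4a6c at 11469366 to 11482192, Ms4a6b at 11516512 to 11531256 and Ms4a6d at 11586604 to 11604849. Ccr2 lies on chromosome 9 at 124101950 to 124113557, Ly6c2 on chromosome 15 at 75108158 to 75111970 and Plac8 on chromosome 5 at 100553725 to 100572245. Several have close copies, which limits how surely reads are placed. Of the 31-base words of the longest coding transcript, Ly6c2 shared 53.8% with other genes, chiefly Ly6c1, Ms4a6c shared 23.6%, chiefly with Ms4a6b, and Ms4a4c shared 17.6%, chiefly with Ms4a4b. The share was 12.9% for Ms4a6b, 6.70% for Ms4a6d, 4.03% for Ccr2 and 0% for Plac8 and Ms4a7. The values of Ly6c2, Ms4a6c, Ms4a4c and Ms4a6b are therefore uncertain to that extent, since how the counting split shared reads is not given in the sources used here.

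The likeness of Ms4a6b and Ms4a6c reaches into their promoters. RefSeq sequences on GRCm38.p6 were matched for 7 of the 8 genes, all but Ms4a6d, over the 250 bases before and the 50 bases after the start of the RefSeq entry. For Ms4a6b, Ms4a4c, Ccr2, Plac8 and, by a few bases, Ms4a6c this start lies inside the GENCODE span given above. These windows therefore precede the RefSeq start and not the outermost start. The windows of Ms4a6b and Ms4a4c lie wholly within the span of the gene, and that of Ccr2 almost wholly. The 150 bases just before the RefSeq start are shown for this pair, with the 48 bases they share without a mismatch in capitals, and for Ly6c2, with a match to AGGAAGT, a core of PU.1 binding sites, in capitals. The windows are chr19:11518409-11518558 (plus strand), chr19:11469218-11469367 (plus strand) and chr15:75111972-75112121 (minus strand).
Ms4a6b: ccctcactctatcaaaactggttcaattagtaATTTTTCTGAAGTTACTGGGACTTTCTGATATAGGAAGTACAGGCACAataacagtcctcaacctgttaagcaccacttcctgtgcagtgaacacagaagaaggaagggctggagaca
Ms4a6c: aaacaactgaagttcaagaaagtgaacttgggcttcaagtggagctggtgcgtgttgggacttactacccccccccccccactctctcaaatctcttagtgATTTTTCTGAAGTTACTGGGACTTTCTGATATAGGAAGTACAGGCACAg
Ly6c2: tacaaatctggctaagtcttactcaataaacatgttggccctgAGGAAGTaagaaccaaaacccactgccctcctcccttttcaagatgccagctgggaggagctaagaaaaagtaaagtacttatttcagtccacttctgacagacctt
The shared run lies at positions -118 to -71 from the start of Ms4a6b and at -49 to -2 from that of Ms4a6c. It holds an AGGAAGT in both genes, and Ms4a6b has a further match on the other strand at -43. Ly6c2 has 1 at -107 and 1 after the start, at 27. Over the whole 300 bases on either strand, AGGAAGT was found in 9.35% of 32851 promoters, and not in those of Ccr2, Plac8, Ms4a4c or Ms4a7. A core of the interferon-stimulated response element stood in 3.44% of promoters and matched in none of the 7. A C/EBP-like motif, TTNNGNAA, matched in all 7 and in 40.7% of all promoters. None of its matches in the 7 overlapped an AGGAAGT match. Each match is a description of the letters only.

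Some libraries stood apart, and the main differences of GYY_PD1 are also given without its replicates 1 and 4. Transcript models of satellite-like repeats (Gm10800 and its relatives, 13 models) took 25.8% to 83.4% of TPM in GYY_PD1, 5.86% to 54.9% in GYY_IgG, 1.63% to 59.6% in Veh_PD1 and 3.53% to 13.2% in Veh_IgG tumours. Replicates 1 and 4 of GYY_PD1 had 8198 and 6659 genes at 1 TPM or more, against 11517 to 15162 in the other 18 libraries. On the deposited scale the median difference of all tested genes between GYY_PD1 and Veh_IgG was -2.09 log2. Values were therefore taken relative to the median of tested genes in each library, here called the centred scale, and the difference this makes is stated where a direction turns. The part of the repeats in any difference below was not tested. Smarcb1, which is typically lost in renal medullary carcinoma, was at 1.17 to 46.6 TPM over the 20 libraries, and bulk tumours also hold host cells. All 8 general leukocyte markers and all 12 further classical monocyte genes were above 0 in every library.

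In length-corrected units the 8 genes are taken here in the order of their medians over the 20 libraries; this whole order held in 2 of them. Ms4a6d was the highest, with a median of 56.0 TPM over the 20 libraries, and exceeded Ms4a6c, at 34.1 TPM, in 19 of 20. Ms4a6c exceeded Plac8, at 25.9 TPM, in only 12 of 20, so that these neighbours did not differ beyond their spread. Plac8 exceeded Ccr2, at 12.9 TPM, in 19 of 20. Ccr2 exceeded Ms4a6b, at 9.23 TPM, in 17. Lower in the order, Ms4a6b exceeded Ms4a7, at 7.21 TPM, in 14, Ms4a7 exceeded Ms4a4c, at 3.68 TPM, in 15, and Ms4a4c exceeded Ly6c2, at 2.73 TPM, in 15, which leaves the order of these 4 less settled. Ly6c2 ranged from 0.357 to 7.82 TPM and Ms4a6d from 2.56 to 109 TPM.

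**Figure D1:**
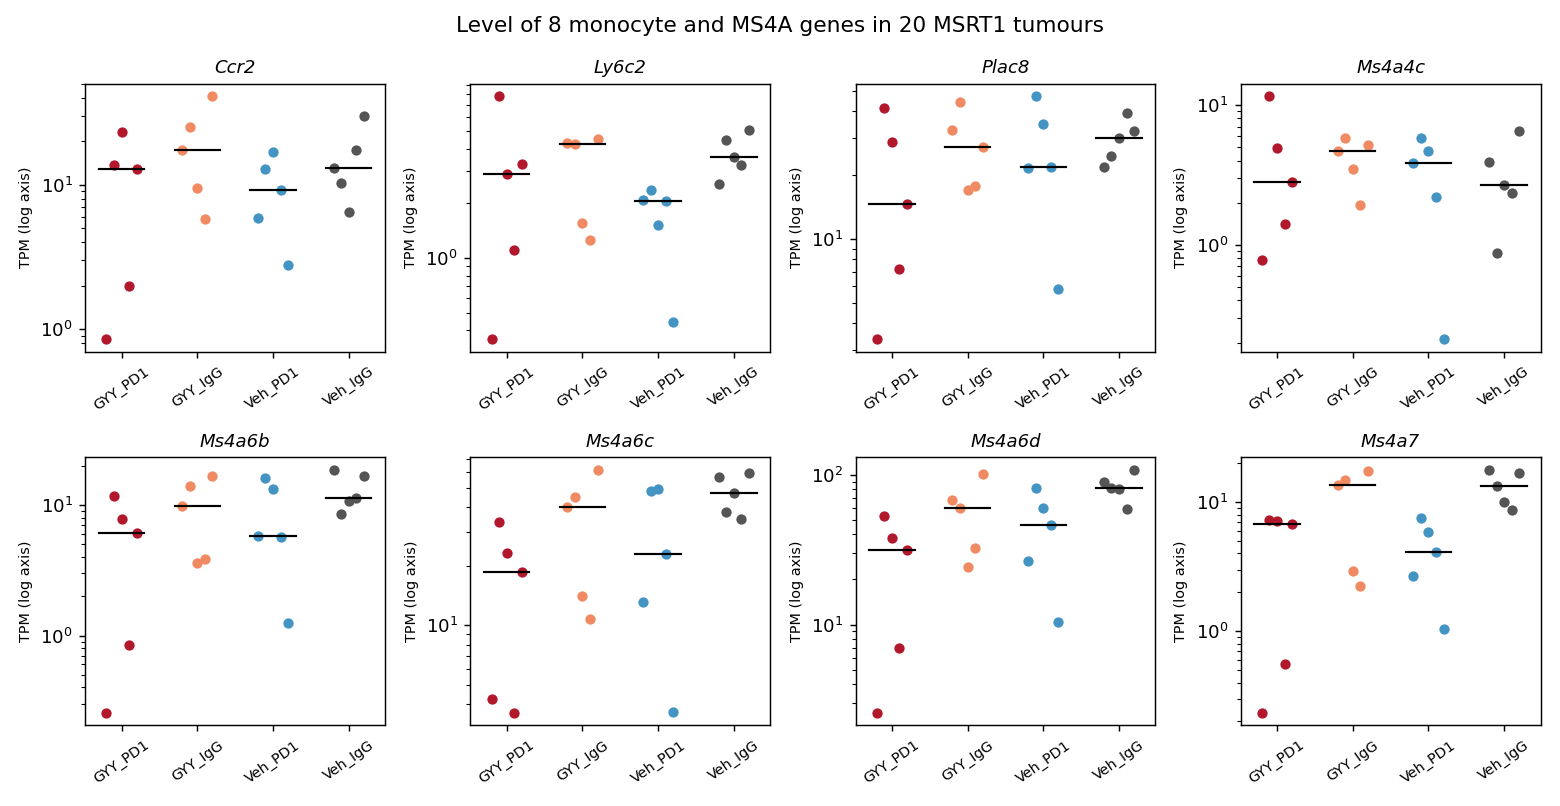
Level of each of the 8 genes (TPM, log axis) in the 5 libraries of GYY_PD1, GYY_IgG, Veh_PD1 and Veh_IgG; points are libraries in replicate order and the line is the group median. Ms4a7 was between 1.04 and 7.50 TPM in Veh_PD1 and between 8.64 and 17.9 TPM in Veh_IgG, without overlap, and the lowest points of GYY_PD1 are replicates 1 and 4.

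No member passed an adjusted p under 0.05 in any of the 8 comparisons on the centred scale, in limma fitted across all 15422 tested genes with Benjamini-Hochberg adjustment. The comparison of GYY_PD1 with Veh_PD1 called 1 gene, 0.00648% of those tested, and the other 7 comparisons called 0 (0%). At an unadjusted p under 0.05, 3 of 8 members were higher in GYY_PD1 than in Veh_IgG and 0 were lower. By the same rule 848 of all 15422 genes were higher and 1757 lower, or 16.9% in either direction. The counts were 2 of 8 against 12.9% for GYY_PD1 versus Veh_PD1, 1 of 8 against 9.77% for GYY_PD1 versus GYY_IgG, 1 of 8 against 1.77% for Veh_PD1 versus Veh_IgG and 0 of 8 against 1.15% for GYY_IgG versus Veh_IgG. For the averaged effects they were 3 of 8 against 8.59% (GYY4137) and 2 of 8 against 7.61% (PD1 antibody), and 1 of 8 against 2.44% for the interaction. These comparisons share samples, so their counts are not independent of each other. In bulk tumours, a change in the number of cells that express a gene and a change in its transcript per cell cannot be told apart.

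**Figure D2:**
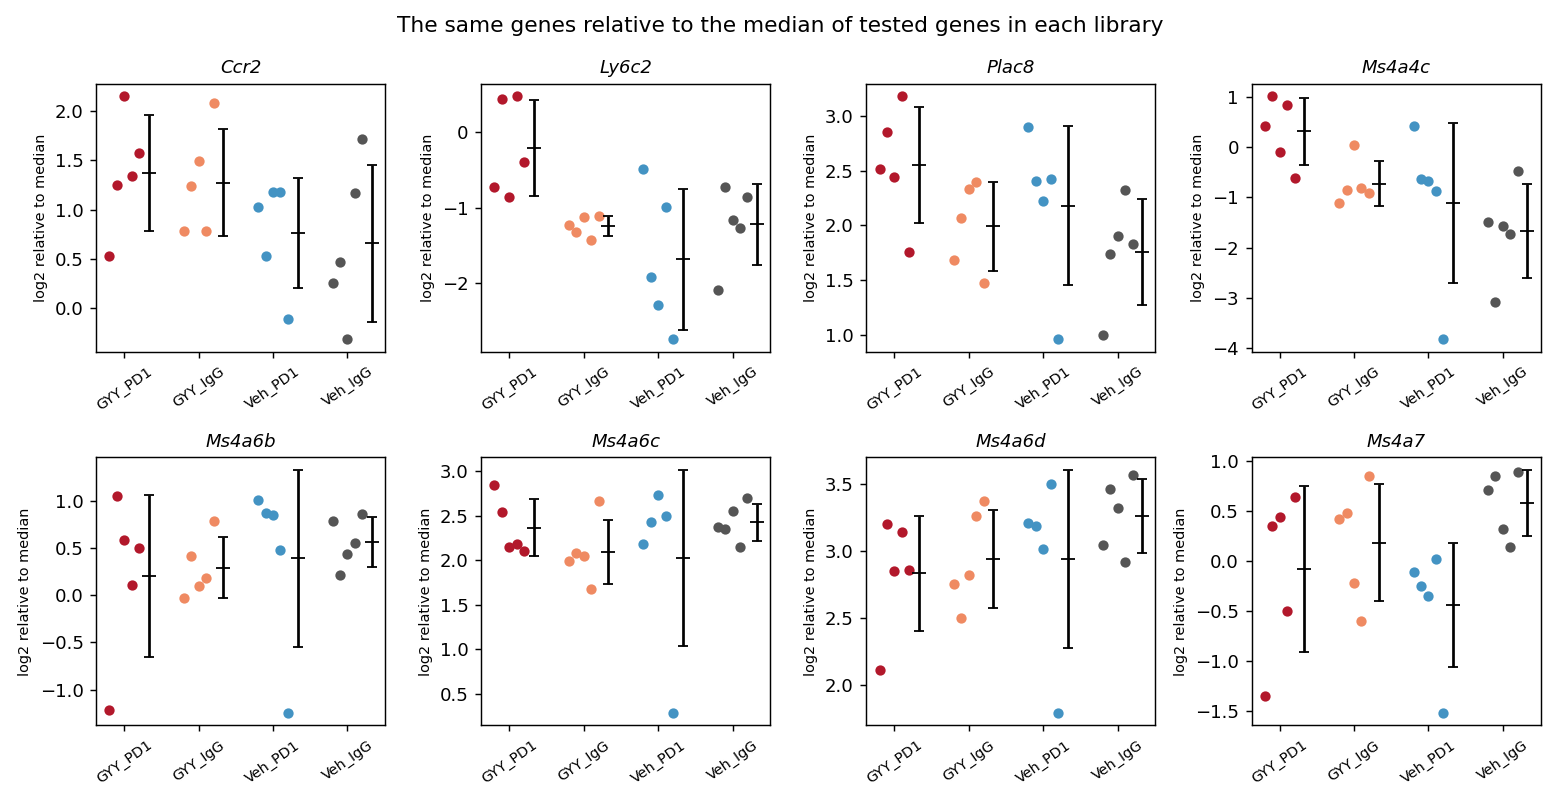
The same 8 genes as log2 TPM relative to the median of tested genes in each library; points are libraries in replicate order, and bars are the mean and SD of the 5. Ms4a4c lies between -0.62 and 1.02 in GYY_PD1 and between -3.09 and -0.49 in Veh_IgG, and replicate 5 of Veh_PD1 is low for Ms4a4c and all 4 of the other MS4A genes.

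Ccr2, the receptor that draws monocytes to CCL2, varied widely between tumours of the same group. It was at 0.851, 13.7, 23.3, 2.00 and 12.9 TPM in GYY_PD1, and at 13.1, 10.2, 6.45, 17.5 and 30.0 TPM in Veh_IgG. The 2 low values of GYY_PD1 are replicates 1 and 4, and the groups overlap. On the centred scale Ccr2 averaged 1.37 ± 0.58 in GYY_PD1 and 0.66 ± 0.79 in Veh_IgG (SD, n = 5 each), a log2 difference of 0.71 (SE 0.38) that did not pass in limma (adjusted p = 0.326). It was 1.00 without replicates 1 and 4 of GYY_PD1, and -1.20 on the deposited scale. Averaged over both antibodies the GYY4137 difference was 0.61 (SE 0.27; limma, adjusted p = 0.569), the PD1 difference averaged over vehicle and GYY4137 was 0.10 (SE 0.27), and the interaction was -0.0047 (SE 0.54).

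The 4 chemokines listed here as ligands of CCR2 showed no common direction. Of Ccl2, Ccl7, Ccl8 and Ccl12, 1 was higher and 3 were lower in GYY_PD1 than in Veh_IgG, with none called and a median difference of -0.12, against -0.17 over all genes tested. Ccl12 differed by -1.13 (SE 0.51; adjusted p = 0.283), Ccl2 by -0.20 and Ccl8 by 0.06. Without replicates 1 and 4 of GYY_PD1, 3 were higher and 1 was lower, with a median of 0.06. Each single treatment against Veh_IgG had 1 ligand higher and 3 lower.

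Ly6c2 encodes the Ly6C protein by which mouse classical monocytes are sorted. It was at 0.357, 7.82, 2.91, 1.11 and 3.29 TPM in GYY_PD1, at 4.32, 4.25, 1.57, 1.26 and 4.52 TPM in GYY_IgG, at 2.08, 2.36, 1.52, 2.06 and 0.448 TPM in Veh_PD1, and at 2.56, 4.49, 3.59, 3.25 and 5.07 TPM in Veh_IgG. In TPM the groups overlap, apart from Veh_PD1 lying below Veh_IgG, as did 2.05% of all tested genes. On the centred scale all 5 GYY_PD1 tumours, at -0.85 to 0.48, were above all 5 GYY_IgG tumours, at -1.42 to -1.11; among all tested genes 0.428% did not overlap in this direction. Complete separation of 5 against 5 always gives the smallest exact permutation p, 0.00794 (two-sided, unadjusted), so that p adds nothing to the lack of overlap. The mean difference was 1.03 (SE 0.39, limma, adjusted p = 0.461), and it was -0.49 on the deposited scale.

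Ly6c2 also differed by 1.47 (SE 0.39; limma, adjusted p = 0.325) between GYY_PD1 and Veh_PD1, and by 1.01 (SE 0.39; adjusted p = 0.257) between GYY_PD1 and Veh_IgG. The deposited scale gave 0.42 and -0.91 for these 2 differences. Without replicates 1 and 4 of GYY_PD1 they were 1.41 and 0.95 on the centred scale, and the difference from GYY_IgG was 0.97. GYY4137 with IgG left it close to vehicle with IgG, at -0.02 (SE 0.39), and the PD1 antibody with vehicle gave -0.46 (SE 0.39). The interaction, the amount by which the GYY4137 difference under PD1 antibody exceeded that under IgG, was 1.496 (SE 0.56; limma, adjusted p = 0.875). With each library left out in turn it lay between 1.23 and 1.80, and on the deposited scale it was 0.83. Ly6c1, the near copy that endothelial cells also express, followed Ly6c2 closely over the 20 libraries (Spearman rho 0.87), and because the 2 share sequence this likeness is uncertain; in GYY_PD1 against Veh_IgG it differed by 0.50 (SE 0.28; adjusted p = 0.342).

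Plac8 was above 3 TPM in every library. It was at 3.36, 41.6, 28.6, 7.18 and 14.6 TPM in GYY_PD1, and at 21.8, 24.7, 30.0, 39.0 and 32.4 TPM in Veh_IgG, with overlap. On the centred scale it averaged 2.55 ± 0.53 in GYY_PD1 and 1.76 ± 0.48 in Veh_IgG (SD, n = 5 each). The difference of 0.79 (SE 0.33) did not pass in limma (adjusted p = 0.271), was 0.60 without replicates 1 and 4 of GYY_PD1, and was -1.12 on the deposited scale. Averaged over vehicle and GYY4137 the PD1 difference was 0.49 (SE 0.23; limma, adjusted p = 0.606), and the GYY4137 difference averaged over antibodies was 0.30 (SE 0.23).

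Ms4a4c had the largest difference among the members in any pair of groups on the centred scale. It was at 0.784, 11.6, 4.91, 1.41 and 2.81 TPM in GYY_PD1, at 4.69, 5.83, 3.51, 1.91 and 5.15 TPM in GYY_IgG, at 3.86, 5.76, 4.65, 2.21 and 0.211 TPM in Veh_PD1, and at 3.89, 0.867, 2.68, 2.36 and 6.53 TPM in Veh_IgG. The groups overlap in TPM. On the centred scale it averaged 0.31 ± 0.67 in GYY_PD1, -0.73 ± 0.45 in GYY_IgG, -1.12 ± 1.60 in Veh_PD1 and -1.68 ± 0.93 in Veh_IgG (SD, n = 5 each). On that scale GYY_PD1 exceeded Veh_IgG by 1.98 (SE 0.61; limma, adjusted p = 0.231), or 3.96-fold, and 1 tumour of GYY_PD1 was below the highest of Veh_IgG.

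The difference of Ms4a4c was 1.78 without replicates 1 and 4 of GYY_PD1, 1.73 (SE 0.57) relative to 8 leukocyte markers, 0.07 on the deposited scale and -0.40 after rescaling to nuclear coding genes. It ranged from 1.63 to 2.28 with 1 library left out, where the lowest adjusted p was 0.0840, without replicate 5 of Veh_PD1. That library, at -3.83 on the centred scale, is in neither group compared. Leaving it out changed the shared estimate of the spread and not the difference. GYY_IgG exceeded Veh_IgG by 0.94 (SE 0.61) and Veh_PD1 exceeded it by 0.56 (SE 0.61), the second of which was 1.23 without replicate 5 of Veh_PD1. Averaged over both antibodies GYY4137 gave 1.19 (SE 0.43; limma, adjusted p = 0.520), and the interaction of 0.49 (SE 0.86) did not pass.

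**Figure D3:**
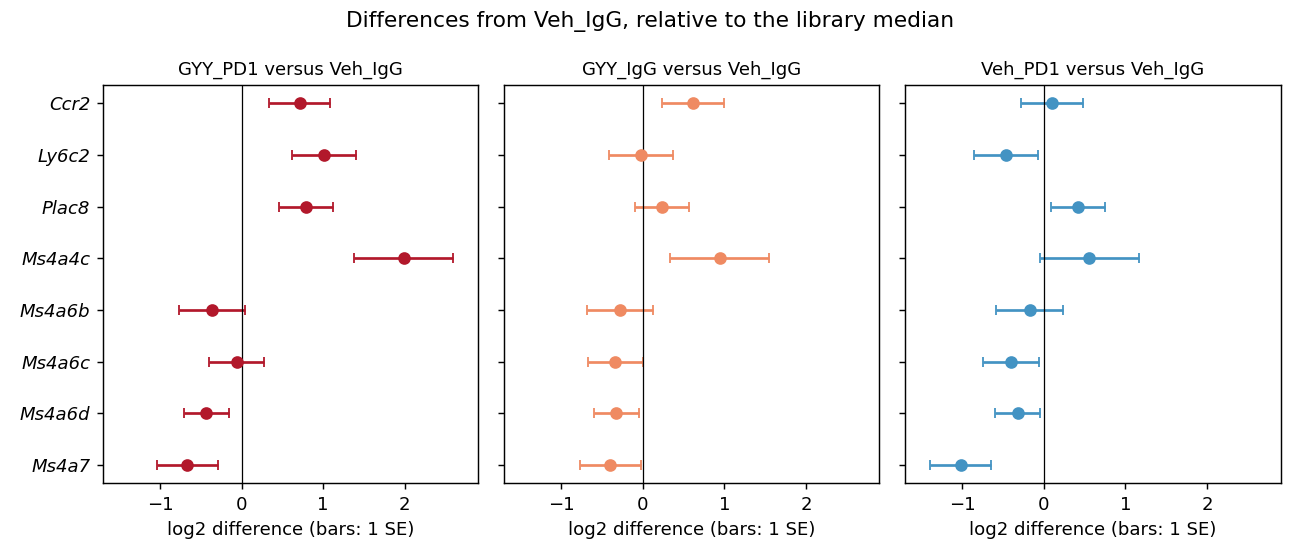
Log2 differences on the centred scale of GYY_PD1, GYY_IgG and Veh_PD1, each minus Veh_IgG (x axis), for the 8 genes, with bars of 1 SE from limma; the 3 panels share the 5 Veh_IgG tumours. Ms4a4c in GYY_PD1, at 1.98, lies farthest to the right, Ms4a7 in Veh_PD1, at -1.02, farthest to the left, and none passed after adjustment.

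The Ms4a6 genes, 2 of which were the most abundant of the 8, did not separate the groups once the libraries were centred. Ms4a6d was at 2.56, 52.9, 37.9, 6.97 and 31.5 TPM in GYY_PD1 and at 90.2, 81.5, 80.4, 59.1 and 109 TPM in Veh_IgG, with every GYY_PD1 tumour below every Veh_IgG tumour in TPM. Ms4a6c and Ms4a7 did not overlap in this way either, and 48.9% of all tested genes lay lower without overlap in TPM. On the centred scale this separation was gone, with 2.12 to 3.20 in GYY_PD1 and 2.92 to 3.57 in Veh_IgG. The difference of -0.43 (SE 0.28) did not pass in limma (adjusted p = 0.381). For Ms4a6b the difference was -0.36 (SE 0.41; adjusted p = 0.581) and for Ms4a6c it was -0.06 (SE 0.34; adjusted p = 0.922). Without replicates 1 and 4 of GYY_PD1, Ms4a6b was at 0.14. In Veh_PD1 against Veh_IgG the 3 genes gave -0.18, -0.40 and -0.32 for Ms4a6b, Ms4a6c and Ms4a6d, and 0.23, 0.03 and -0.03 without replicate 5 of Veh_PD1. In that replicate all 3 were lower than in the other 4 tumours of the group.

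Ms4a7, the macrophage-associated member, separated the PD1 antibody from IgG under vehicle. It was at 2.69, 7.50, 5.82, 4.13 and 1.04 TPM in Veh_PD1, and at 17.9, 13.3, 9.99, 8.64 and 16.9 TPM in Veh_IgG. All 5 Veh_PD1 tumours lay below all 5 Veh_IgG tumours in TPM, as did 2.05% of all tested genes, and on the centred scale, as did 0.324%. The centred means were -0.44 ± 0.62 in Veh_PD1 and 0.58 ± 0.33 in Veh_IgG (SD, n = 5 each). The difference of -1.02 (SE 0.38) did not pass in limma (p = 0.0141, adjusted p = 1.00); the exact permutation p was 0.00794, two-sided, the smallest that 5 against 5 allow. It was -0.75 without replicate 5 of Veh_PD1 and lay between -1.99 and -0.74 over the 37 alternatives that gave a value, with a lowest adjusted p of 0.209. All had the same sign. Many of them cannot move this difference, such as leaving out a GYY4137 library or changing the threshold, so this was partly fixed in advance.

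Under GYY4137 the picture for Ms4a7 was less even. It was at 0.232, 7.32, 7.10, 0.558 and 6.75 TPM in GYY_PD1, and at 13.5, 14.7, 2.91, 2.23 and 17.5 TPM in GYY_IgG, which overlap. GYY_PD1 differed from Veh_IgG by -0.66 (SE 0.38; limma, adjusted p = 0.342), and by -0.10 without replicates 1 and 4. GYY_PD1 differed from GYY_IgG by -0.27 (SE 0.38). The interaction of 0.75 (SE 0.53; adjusted p = 0.875) did not pass, so the PD1 difference was not shown to depend on GYY4137. Averaged over vehicle and GYY4137, the PD1 difference was -0.64 (SE 0.27; limma, adjusted p = 0.606).

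Ratios of members within a library do not change with scaling, so they set the members against each other directly. They were examined after the values had been seen and are given without a test. Of the 28 pairs of members, 6 had ratios that did not overlap between GYY_PD1 and Veh_IgG, where 3.32% of all pairs of tested genes did not. Ms4a4c accounted for 4 of these pairs, with Ms4a6b, Ms4a6c, Ms4a6d and Ms4a7, and Ly6c2 for the other 2, with Ms4a6d and Ms4a7. Pairs that share a member are not independent. The count was 2 of 28 for Veh_PD1 versus Veh_IgG (0.838% of all pairs), 2 for GYY_PD1 versus Veh_PD1 (1.23%), 1 for GYY_PD1 versus GYY_IgG (1%) and 0 for GYY_IgG versus Veh_IgG (1.05%).

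The ratio of Ms4a4c to Ms4a6d was 0.307, 0.220, 0.130, 0.202 and 0.0894 in GYY_PD1, and 0.0431, 0.0106, 0.0334, 0.0399 and 0.0601 in Veh_IgG. Every GYY_PD1 tumour was above every Veh_IgG tumour, replicates 2, 3 and 5 included. The log2 ratio averaged -2.53 ± 0.69 in GYY_PD1 and -4.94 ± 0.95 in Veh_IgG (SD, n = 5 each), a difference of 2.41. The difference was 2.35 for the ratio to Ms4a6b, 2.05 to Ms4a6c and 2.65 to Ms4a7. Without replicates 1 and 4 of GYY_PD1 the differences were smaller, at 2.07 for the ratio to Ms4a6d, 1.635 to Ms4a6b, 1.94 to Ms4a6c and 1.88 to Ms4a7. The ratio of Ly6c2 to Ms4a7 was 1.54, 1.07, 0.409, 1.98 and 0.488 in GYY_PD1, and 0.144, 0.337, 0.359, 0.376 and 0.301 in Veh_IgG, also without overlap. The log2 difference was 1.67, and 1.055 without replicates 1 and 4 of GYY_PD1.

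**Figure D4:**
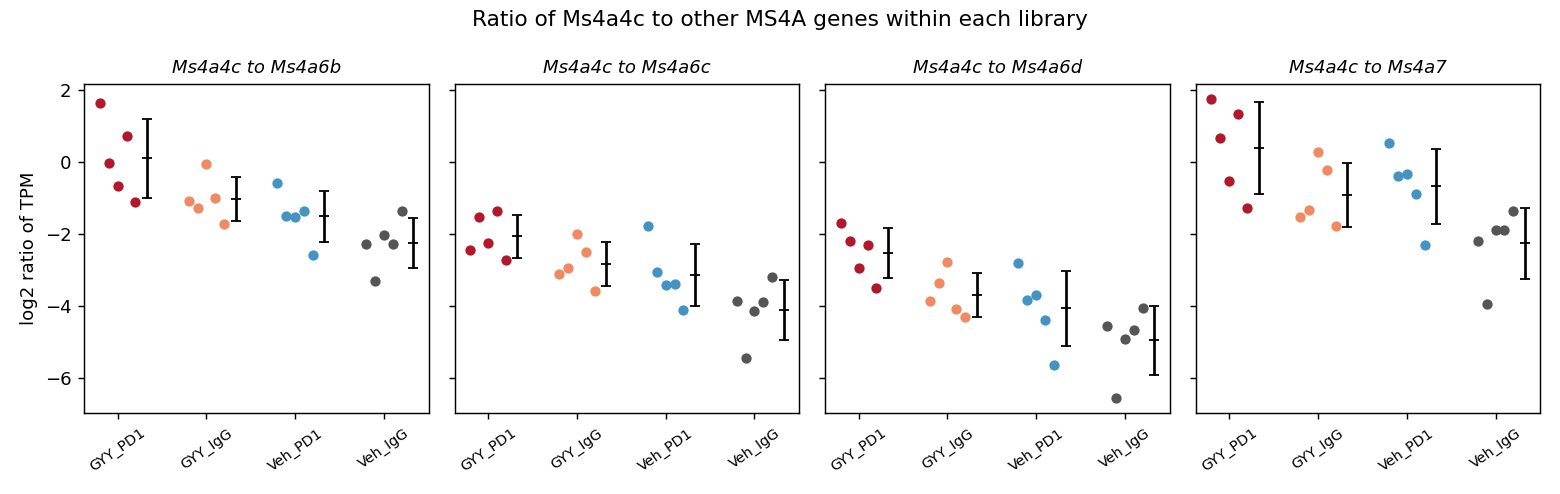
Log2 ratio of the TPM of Ms4a4c to that of Ms4a6b, Ms4a6c, Ms4a6d and Ms4a7 within each library, by group; points are libraries in replicate order, and bars are the mean and SD of the 5. In each panel the 5 GYY_PD1 points lie above the 5 Veh_IgG points, by 2.05 to 2.65 log2 in the mean, and GYY_IgG and Veh_PD1 overlap both.

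In the comparison of PD1 antibody with IgG under vehicle the pairs that separated were those with Ms4a7. The ratio of Ms4a6d to Ms4a7 was 9.97, 10.9, 10.3, 11.2 and 9.93 in Veh_PD1, and 5.05, 6.13, 8.04, 6.84 and 6.44 in Veh_IgG. The Veh_PD1 values are close together, replicate 5 included, and all above Veh_IgG. In GYY_PD1 the ratio was 11, 7.23, 5.33, 12.5 and 4.66, and in GYY_IgG it was 5.05, 4.06, 8.28, 14.6 and 5.78, so these 2 groups overlap with both of the vehicle groups. The ratio of Plac8 to Ms4a7 was 8.02, 6.30, 5.95, 5.27 and 5.57 in Veh_PD1, and 1.22, 1.86, 3.00, 4.52 and 1.92 in Veh_IgG, again without overlap.

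The choice of scale decided the sign of several members. Between GYY_PD1 and Veh_IgG on the deposited scale, 4 of 8 members passed an adjusted p under 0.05, all lower, where 69.9% of all genes were called lower and 0.311% higher. They were Ms4a6b (-2.28), Ms4a6c (-1.98), Ms4a6d (-2.34) and Ms4a7 (-2.58), set against the median of -2.09 for all genes. Ccr2, Ly6c2 and Plac8 were at -1.20, -0.91 and -1.12 and Ms4a4c was at 0.07, none called. After rescaling to nuclear coding genes, 6 of 8 members were called lower in this comparison and 6 of 8 in the averaged PD1 effect, where 90.7% and 86.2% of all genes were called lower and 0.254% and 0.161% higher. Relative to the mean of 8 leukocyte markers, which moves all genes of a library by the same amount, Ms4a4c was at 1.73, Ly6c2 at 0.76, Plac8 at 0.54, Ccr2 at 0.46, Ms4a6c at -0.31, Ms4a6b at -0.61, Ms4a6d at -0.68 and Ms4a7 at -0.92.

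**Figure D5:**
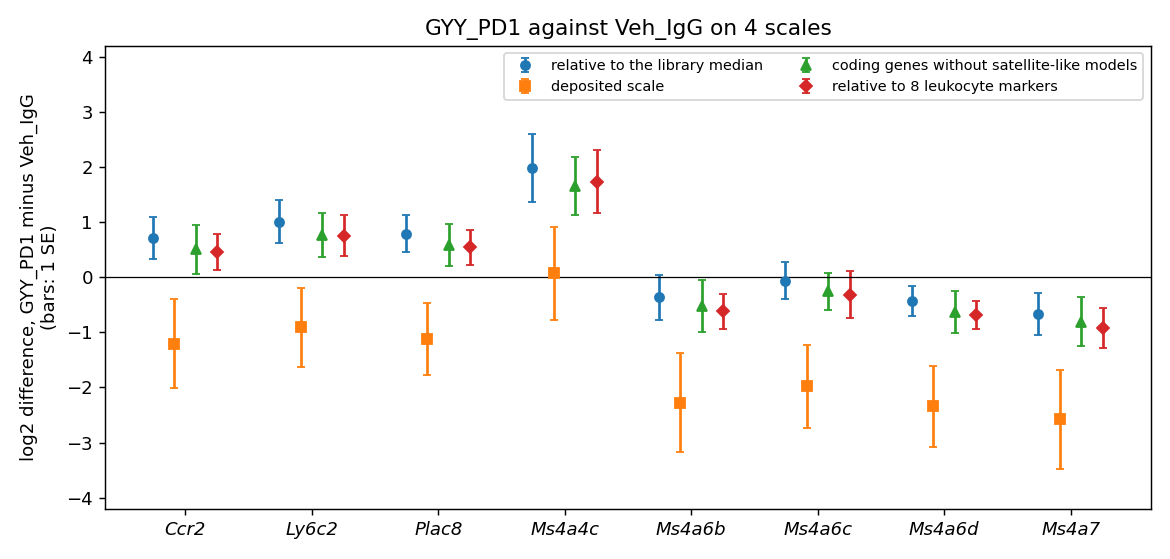
Log2 difference of GYY_PD1 minus Veh_IgG for each gene on 4 scales, with bars of 1 SE: relative to the library median, as deposited, rescaled to nuclear coding genes without satellite-like models (log2 of TPM plus 1), and relative to 8 leukocyte markers. The deposited values lie lowest for every gene, down to -2.58 for Ms4a7. A change among the scales without rescaling moves all genes of a library together, so their order there is fixed.

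Genes related to the members by family or by cell type were described as lists, none of which had a called gene between GYY_PD1 and Veh_IgG. Of all 15422 tested genes, 5798 were higher and 9624 lower in this comparison, with a median of -0.17. The names of the lists do not show which cells of a bulk tumour gave these transcripts, and this was not tested. Of the further MS4A family, 5 of 15 genes were tested, with 2 higher and 3 lower and a median of -0.06. Ms4a4a, another macrophage transcript, differed by -0.40, Ms4a4d by 0.28 and Tmem176b by -0.23. Of 8 further Ly6 genes 3 were tested, with 2 higher: Ly6c1 at 0.50, Ly6a at 0.53 and Ly6e at -0.08. The 12 further classical monocyte genes were 7 higher and 5 lower, with a median of 0.40. Within them F13a1, a clotting factor subunit of monocytes and macrophages, was at -1.08 (SE 0.32; limma, adjusted p = 0.226) and Thbs1, thrombospondin, at 1.17 (SE 0.57). Of 10 nonclassical monocyte genes 8 were tested, with 6 higher and 2 lower and a median of 0.94, among them the integrin Itgal at 1.36 (SE 0.36; adjusted p = 0.209), Spn at -0.74 and Cd36 at 1.47. The 12 genes of monocyte development were 7 higher and 5 lower, with a median of 0.14; the transcription factors Zeb2 and Irf8 were at 0.52 and 0.71 and the receptor subunit Csf2rb at 0.81.

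Markers of other cells were set beside the members in the same way, also with none called. Of all 15422 tested genes, 9624 were lower in GYY_PD1 than in Veh_IgG, with a median of -0.17. Without replicates 1 and 4 of GYY_PD1, 8813 were lower, with a median of -0.04. Against Veh_IgG, 8030 were lower in GYY_IgG and 8710 in Veh_PD1. The 12 macrophage markers were all lower in GYY_PD1 than in Veh_IgG, with a median of -0.55, and 11 of 12 were lower in each single treatment; Mrc1 was at -0.83 (SE 0.28; limma, adjusted p = 0.237), Lyve1 at -1.88 and the complement gene C1qc at -0.66. Without replicates 1 and 4 of GYY_PD1 the median was -0.04, with 7 of 12 lower. Their mean on the centred scale was 0.97 to 2.23 in GYY_PD1, 1.21 to 2.37 in GYY_IgG, 1.09 to 2.27 in Veh_PD1 and 1.91 to 2.49 in Veh_IgG. The part of macrophage content in the values of Ms4a7 was not tested. All 6 tested T cell markers were higher in GYY_PD1 than in Veh_IgG, with a median of 1.84 (2.32 without replicates 1 and 4 of GYY_PD1), with Cd3e at 2.37, Cd2 at 1.62 and Cd3g at 3.43, from low levels: the 9 genes of the list summed to 1.27 to 17.5 TPM in GYY_PD1 and to 2.40 to 5.67 TPM in Veh_IgG. In at least 1 library of GYY_PD1, 2 of the 9 were listed at 0, against 0 of the 9 in Veh_IgG. Their part in the values of Ms4a4c was not tested.

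Values of the remaining lists are for the same comparison. Neutrophil markers had 5 of 8 higher and a median of 0.19, with Csf3r at 1.47, Mmp9 at 1.33 and Cxcr2 at 0.71, while S100a8 was at -1.04, S100a9 at -0.59 and Retnlg at -0.45. In GYY_PD1, 6 of the 8 were listed at 0 in at least 1 library, and the mean of the list ran from -6.32 to 3.14 in GYY_PD1 and from -1.78 to 1.43 in Veh_IgG; without replicates 1 and 4 all 8 were higher, with a median of 1.13. In Veh_PD1 against Veh_IgG all 8 were higher, with a median of 1.69 and none called. Dendritic cell markers had 3 of 9 tested, all higher, with a median of 0.73, Ccr7 at 2.82, Itgax at 0.73 and Bst2 at 0.33. Of B cell markers 4 of 6 were tested, 2 higher and 2 lower, with Cd22 at 1.15, Ighm at 3.22 and Pax5 at -0.13. The 6 genes of that list summed to 1.28 to 159 TPM in GYY_PD1, with a median of 6.59. In Veh_IgG they summed to 8.61 to 17.1 TPM, with a median of 10.5. The 6 endothelial markers were all higher, with a median of 0.51, with Pecam1 at 0.71, Egfl7 at 0.63 and Kdr at 0.64. The 8 leukocyte markers had 5 higher and a median of 0.25, with Cd52 at 0.92, Lcp1 at 0.57 and Coro1a at 0.45. No gene of the NK cell or mast cell and basophil lists reached the level for testing; the 6 NK cell genes summed to at most 3.92 TPM in any library.

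Across the 20 libraries on the centred scale, the members did not follow each other as 1 block. Spearman rho between members ran from -0.45 (Plac8 and Ms4a7) to 0.77 (Plac8 and Ms4a4c). Ms4a4c also followed Ly6c2 (0.60) and Ccr2 (0.53), while Ms4a6b, Ms4a6c and Ms4a6d followed each other at 0.47 to 0.50. Without replicates 1 and 4 of GYY_PD1 the value for Ms4a6b and Ms4a6c was 0.72, and that for Plac8 and Ms4a4c was 0.69. The libraries share composition, and the groups differ in it, so these values are descriptions.

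The 10 genes highest in median rho to the 8 members were Slfn2 (0.49), Npc2, Tyrobp, Cd52, Arhgap15, Fcer1g, Lipo3, Coro1a, Cyba and Ptpn6 (0.44). They were picked as the top of a ranking of 15414 other genes, whose 99th percentile was 0.34. The top 10 of so many must lie above that percentile, so it does not show that they stand out. Tyrobp and Fcer1g encode signalling adaptors of myeloid receptors, Cyba a subunit of the phagocyte oxidase, and Ptpn6 the phosphatase SHP-1. The single closest gene differed by member. Ms4a4c was most like Ifi209 (0.85), Plac8 most like Gbp8 (0.86), Ccr2 most like St8sia4 (0.83) and Ms4a6b most like Cnot8 (0.83). Ms4a6c was most like Ap1s2 (0.85), Ms4a6d most like Tnfaip6 (0.79) and Ms4a7 most like Nptn (0.87). Each value is the highest among all ranked genes over only 20 libraries. How high such a maximum lies by chance was not measured.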

How the data were processed

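The deposited table gives log2 TPM with no constant added, by the authors; a value of 0 TPM stands at -8.88. The submitters' processing notes list Salmon 0.14.1 and HTSeq 0.11.0 beside cutadapt and fastp, on mm10; which tool made the values is not given in the sources used here. Read depth is unknown from TPM, and counting error could not be computed. Group labels come from the titles, which name biological replicates. The members and lists were chosen with earlier results of these data known. Values were centred on the median, in each library, of the 15422 genes that reached 1 TPM in 5 or more libraries, and fitted in 1 limma model (3.58.1, R 4.3.3) of 4 groups with trended empirical Bayes and 16 residual degrees of freedom, with Benjamini-Hochberg adjustment over all tested genes. The script was tested on simulated data. Named genes are the members, the 10 genes most like them by median Spearman rho, and up to 3 genes of each other list with the smallest p in GYY_PD1 versus Veh_IgG; closest single genes, ratios and the 3 lower neutrophil genes were chosen after their values were seen. Some results that the rule would name are not reported here. Annotation is GENCODE M21, and promoters are from RefSeq. Alternatives covered scale, pseudocount, filter, variance model, replicate block, threshold and libraries left out.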

Additional observations from a re-analysis of the deposited data

Results flagged for a closer look

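Of 32 combinations of a member and a group, 5 held a library whose gap to the nearest other library exceeded Dixon's critical limit as a share of the group's range, where chance flags about 1 in 20. On the centred scale, replicate 5 of Veh_PD1 was low for Ms4a6b at -1.25, against 0.48 to 1.01 in the other 4 libraries, for Ms4a6c at 0.28, against 2.18 to 2.73, for Ms4a6d at 1.79, against 3.02 to 3.50, and for Ms4a7 at -1.52, against -0.35 to 0.02. This library had 11517 genes at 1 TPM or more and the lowest mean of leukocyte markers in its group, at 1.59. Replicate 3 of GYY_IgG was high for Ms4a4c at 0.046, against -1.11 to -0.82 in the other 4.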

How the results depend on the processing

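The count of members called was 0 in all 8 comparisons and stayed 0 under every alternative that gave a value, apart from 2 of the scale. Between GYY_PD1 and Veh_IgG it was 4 on the deposited scale and 6 after rescaling to nuclear coding genes (log2 of TPM plus 1, satellite-like models kept), and 6 for the PD1 effect averaged over vehicle and GYY4137 under that rescaling. The rescaling turned Ccr2 (-1.60) and Plac8 (-1.67) in GYY_PD1 versus Veh_IgG, and Ccr2 (-1.24) and Ly6c2 (-0.89) in the averaged PD1 effect; it called 90.7% and 86.2% of its 11811 genes lower in the 2 comparisons. With satellite-like models also left out, an alternative chosen after seeing the data, 0 members were called. With 1 library left out the count stayed at 0, the lowest adjusted p was 0.0840, and 61 of 1280 member differences changed sign, none called. Many of the 1280 could not change, because the library left out was in neither group of the comparison. Replicate numbers did not pair the tumours: same-numbered tumours correlated at -0.08 to 0.11 (median 0.01, 30 pairs). The replicate block gave 0 calls of members. Every number is present in each group, so the block cannot move a difference, and its 0 sign changes were fixed in advance. Also chosen after seeing the data were the leukocyte scale, the satellite-like share as a covariate (Ms4a4c 2.24, Ms4a7 -0.15 in GYY_PD1 versus Veh_IgG) and the split of libraries at 20% satellite-like TPM; each gave 0 calls. Ratios and list medians without replicates 1 and 4 of GYY_PD1 were added in the same way. Depth is unknown, so how much of the spread of Ly6c2 and Ms4a4c, at a few TPM, is counting error was not measured.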
